A study of Mus musculus with 8 samples.

Results

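The BCL2 family decides whether a cell opens its mitochondrial outer membrane and dies. Pro-survival members (BCL2, BCL-XL, MCL1, A1) hold the pore-forming effectors BAX and BAK in check, while BH3-only members (BIM, BID, NOXA, PUMA) bind and neutralise the pro-survival members or activate the effectors directly. In T cells, BCL2 and MCL1 are known for keeping resting cells alive, and BIM for removing activated cells after a response. Regulatory T cells (Tregs, Foxp3+ suppressor cells) depend on MCL1 and are restrained by BIM. The transcripts of 10 family genes were described here: the pro-survival genes Bcl2, Bcl2l1 (BCL-XL), Mcl1 and Bcl2a1b (A1), the effectors Bax and Bak1, and the BH3-only genes Bcl2l11 (BIM), Bid, Pmaip1 (NOXA) and Bbc3 (PUMA). They were taken by gene name, and all 10 names were found among the 52636 rows of the table. All 10 were among the 12816 genes that were tested.

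Between libraries of mice with and without the Cd70 transgene, Bcl2 differed in opposite directions in the 2 CD4+ subsets. It fell 1.95-fold in Tregs and rose 1.39-fold in conventional CD4+ T cells (Tconvs). Pmaip1 rose in both, 6.91-fold in Tconvs and 2.68-fold in Tregs, and Bcl2l11 fell 1.48-fold in Tregs. At an adjusted p under 0.05, the fall of Bcl2 in Tregs and the rise of Pmaip1 in Tconvs passed in every other fit run, whereas the rise of Bcl2 in Tconvs was lost in 3 of them, that of Pmaip1 in Tregs in 3 and the fall of Bcl2l11 in Tregs in 6. Mcl1, the most abundant member per unit of length, differed by less than the spread between libraries in both subsets.

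CD4+ T cells were sorted from the spleens of Foxp3 reporter mice of 6 to 8 weeks. All mice carried 1 functional allele of Cd27 (CD27+/-), and the CD70Tg mice also carried a Cd70 transgene driven by the CD11c promoter, which is active mainly in dendritic cells (CD11c-Cd70tg;CD27+/-). The controls were CD27+/- mice, named F1 and WT in the labels and KO in the table, and Cd27 itself was read at 2980 to 6123 in all 8 libraries. Tregs were sorted as GFP+ and Tconvs as GFP- cells after magnetic depletion of other lineages (of CD25+ cells too for Tconvs) and exclusion of dead cells, 200000 cells for each of 2 libraries in each of the 4 groups. Cells that had already died were therefore not measured, and transcripts do not report protein or its activity. Transgenic mice develop a spontaneous disease as they age. Whether animals were pooled is not given in the sources used here. Nothing says that the libraries of a group came from separate animals, so p-values measure the spread between these libraries, which may be technical.

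Each value below is a read count that the authors scaled to a library of 20 M reads, so that a value of 20 is 1 read per M. The whole-number steps among the lowest values put the depth at 1.91 to 33.2 M counted reads. The Treg libraries were the shallowest, and the second CD70Tg Tconv library was the deepest. The lowest value of any member, Pmaip1 in a control Tconv library, rested on about 26 reads, and those of the other 9 members on 81 reads or more. Libraries are numbered in the order of the table's columns, which carry no replicate number. Foxp3 was at 1039 to 1497 in Tconvs and at 19769 to 21367 in Tregs, and Cd4 was at 25914 to 31244 in Tconvs and at 16100 to 17700 in Tregs. Ighm, an immunoglobulin gene of B cells, was at 9945 to 12353 in Tconvs and at 36883 to 49097 in Tregs, above Cd4 in the latter, and markers of other cells that moved with the transgene are given after the results.

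The sequences that bear on how these values can be read come first. Bcl2a1b is one of several near-identical A1 genes, and its coding sequence of 516 bases differs from that of Bcl2a1d at 6 positions (98.8% identity) and from that of Bcl2a1a at 11 (97.9% identity). The first 90 coding bases (GRCm38, GENCODE) are shown because they let the copies be told apart over a short stretch, with the 6 positions at which any of the 3 genes differs in capitals.
Bcl2a1b: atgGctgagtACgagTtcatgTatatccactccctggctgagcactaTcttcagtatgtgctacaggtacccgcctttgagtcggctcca
Bcl2a1d: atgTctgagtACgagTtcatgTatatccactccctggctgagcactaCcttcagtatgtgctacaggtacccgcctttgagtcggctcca
Bcl2a1a: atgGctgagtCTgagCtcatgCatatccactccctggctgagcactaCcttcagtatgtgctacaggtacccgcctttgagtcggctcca
Of all stretches of 100 bases in Bcl2a1b transcripts, 56.8% also occur in another gene, and 42.2% occur in Gm29094, a gene model that overlaps it on the same strand. Its values are therefore uncertain, since the counting could assign such reads to any of these genes or drop them.

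The promoters of Bcl2 and Bcl2l11 are shown because these 2 members fell together in Tregs. BIM is a classical target of FOXO factors, which recognise GTAAACA. The 250 bases before the RefSeq start of each (GRCm38.p6) are printed with any GTAAACA match in capitals. For Bcl2l11 the table held 2 starts, and the window of the upstream one is printed. The other window, chr2:128127325-128127574, held no match. Bcl2 lies on the reverse strand and its window is chr1:106714291-106714540, while Bcl2l11 lies on the forward strand and its window is chr2:128125788-128126037.
Bcl2: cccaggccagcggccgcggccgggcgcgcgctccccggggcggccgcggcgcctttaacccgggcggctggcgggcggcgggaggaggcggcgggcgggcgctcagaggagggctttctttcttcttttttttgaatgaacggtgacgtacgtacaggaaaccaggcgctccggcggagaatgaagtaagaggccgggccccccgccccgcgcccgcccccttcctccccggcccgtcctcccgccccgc
Bcl2l11: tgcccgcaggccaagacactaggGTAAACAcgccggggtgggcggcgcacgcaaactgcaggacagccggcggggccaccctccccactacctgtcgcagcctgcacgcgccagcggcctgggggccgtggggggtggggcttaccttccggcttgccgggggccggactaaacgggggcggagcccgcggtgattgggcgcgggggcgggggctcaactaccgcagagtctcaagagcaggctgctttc
GTAAACA, searched on both strands, occurred in a window of 2 of the 9 members with a window in the table, Bcl2l11 and Bbc3, against 3.54% of 27025 genes. GGTGTGA, the core that T-box factors such as EOMES and T-bet recognise, occurred in 1 of the 9, Bcl2l1, against 3.84% of genes. A gene was counted if any of its windows matched. Bcl2l11 and Bbc3 have more than 1 window each, while the 27025 genes had 32851 windows, so these shares are not strictly alike. These are matches of letters within a short window and not sites of binding. Pmaip1 has no window in the table.

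Levels between genes were compared per kilobase of annotated exon. In control Tregs the order was led by Mcl1 at 4145 ± 128 per kb (SD, n = 2), followed by Bcl2a1b at 1358 ± 70.1, Bax at 1069 ± 13.5 and Bak1 at 899.5 ± 42.3. The remaining 6 members were lower, from Bcl2l1 at 417 ± 4.01 through Bcl2 at 393 ± 37.1, Bbc3 at 358 ± 33.6, Bid at 317 ± 1.00 and Bcl2l11 at 201 ± 13.4 to Pmaip1 at 104 ± 4.14 per kb. Of neighbours in that order, the libraries of Bcl2l1 and Bcl2 overlapped, as did those of Bcl2 and Bbc3. In CD70Tg Tregs, Mcl1 still led at 4163 ± 25.0 per kb, whereas Bcl2 (201 ± 4.40) had moved to the ninth place, below Pmaip1 (287 ± 81.3) and above Bcl2l11 (136 ± 2.38) only.

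In control Tconvs, Mcl1 led at 3080 ± 307 per kb (SD, n = 2) and Pmaip1 was last at 22.5 ± 3.37. Bax at 961 ± 18.0 and Bcl2a1b at 942 ± 136 came next and overlapped. They were followed by Bak1 at 800 ± 29.7, Bbc3 at 462 ± 164, Bcl2 at 273 ± 2.47, Bcl2l11 at 209 ± 10.1, Bcl2l1 at 182 ± 17.4 and Bid at 150 ± 2.19. In CD70Tg Tconvs, Pmaip1 reached 173 ± 69.1 per kb and its libraries overlapped those of Bcl2l1 (185 ± 46.1), Bcl2l11 (200 ± 28.1) and Bid (207 ± 59.6). Across the 8 libraries Pmaip1 varied most, with an SD of 1.44 on the log2 scale, and Bax least, with an SD of 0.18.

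**Figure D1:**
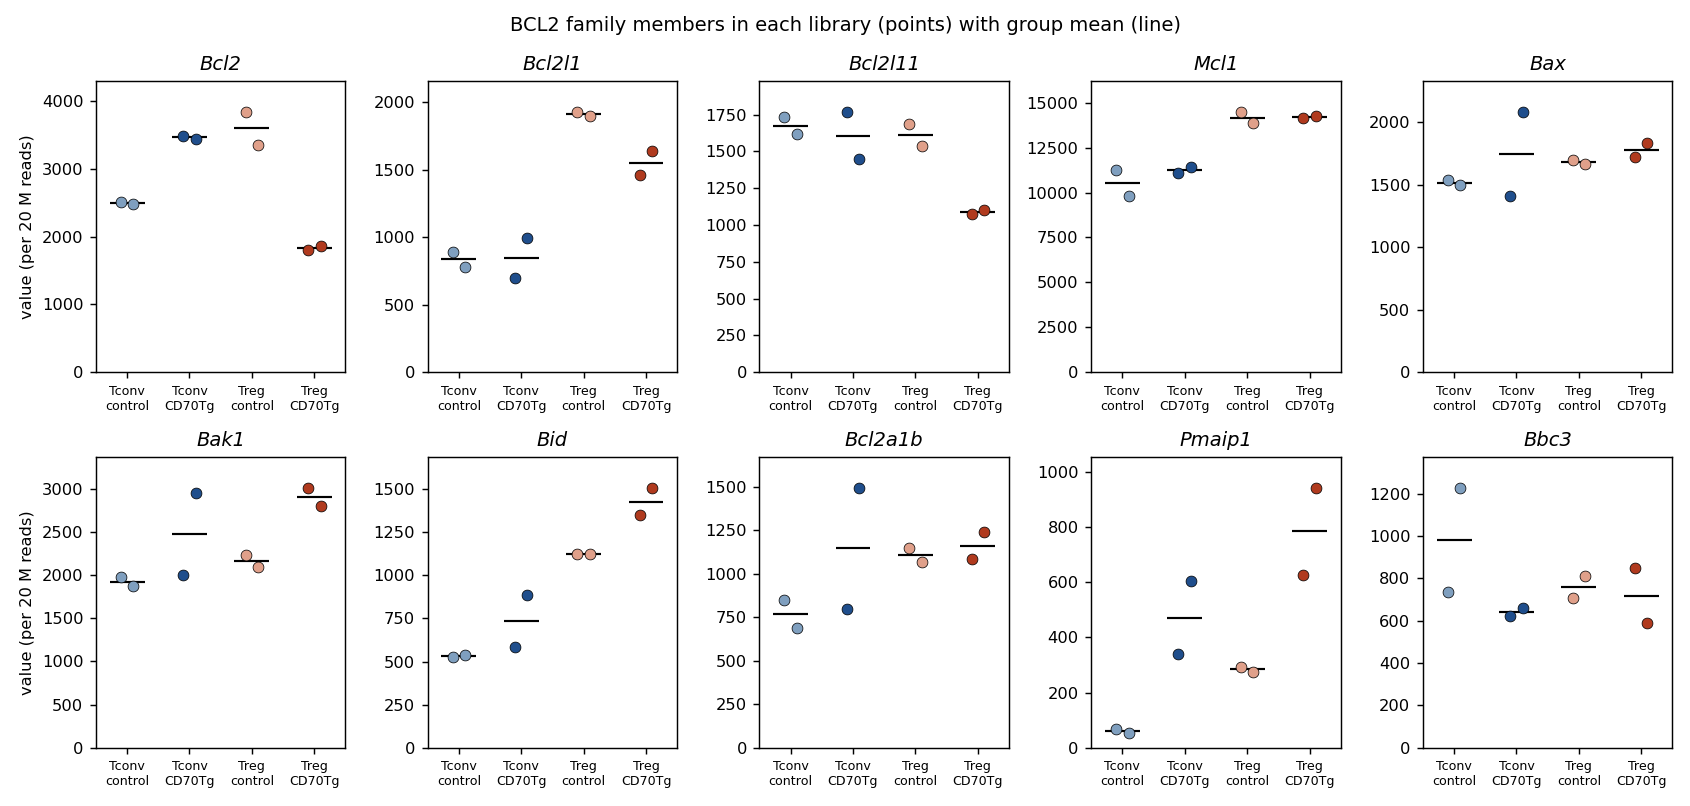
Each panel plots 1 family gene; points are single libraries, the vertical axis is the value scaled to 20 M reads and starts at 0, and lines are group means of 2 libraries. The group mean of Bcl2 was highest in control Tregs (3359 and 3839), with the CD70Tg Tconv libraries between these values, and Bcl2 was lowest in CD70Tg Tregs (1808 and 1865), while Pmaip1 was above its controls in both CD70Tg groups.

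The effect of the transgene was first asked in Tregs. In the limma fit, 3 of the 10 members passed at an adjusted p under 0.05, with Pmaip1 higher and Bcl2 and Bcl2l11 lower, where 7.4% of all genes tested passed (3.94% higher and 3.46% lower). Libraries of the 2 groups did not overlap for 7 members (4 higher and 3 lower), as for 53.7% of all genes tested, so that absence of overlap alone carries little weight with 2 libraries a group. The median change of the 10 members was 0.036 on the log2 scale, beside -0.053 for all genes tested. With an absolute log2 fold change over 1 required as well, Pmaip1 was the 1 member left, where 3.6% of genes passed.

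In Tconvs, 2 members passed, Bcl2 and Pmaip1, both higher, where 8.81% of all genes tested passed (6.82% higher and 1.99% lower). Libraries did not overlap for 5 members there (4 higher and 1 lower), as for 45.1% of genes, and the median change of the members was 0.26 beside 0.0069 for all genes. With the fold requirement Pmaip1 was again the 1 member left, where 4.65% of genes passed. Of all genes tested, 3.05% passed in both subsets, in either direction, and 2 of the 10 members, Bcl2 and Pmaip1, did so. Passing in both subsets in opposite directions was seen for 7 genes, or 0.0546% of those tested, and Bcl2 was among them.

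**Figure D2:**
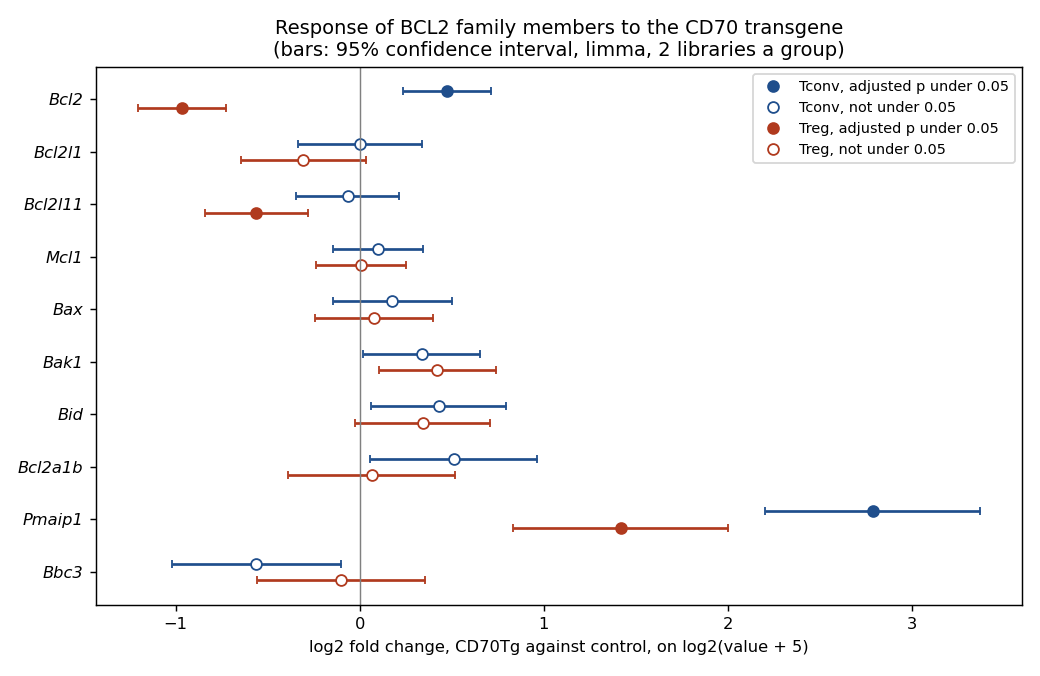
The horizontal axis is the log2 fold change of CD70Tg over control on log2(value + 5), with points for the fitted change in Tconvs (blue) and Tregs (red), bars for its 95% confidence interval and filled points for an adjusted p under 0.05. The intervals of Bcl2 lie on opposite sides of 0 in the 2 subsets, those of Pmaip1 both lie above 0, and those of Mcl1 both include 0.

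Bcl2, the founding pro-survival member, lies on chromosome 1 (GRCm38 chr1:106538178-106714274, reverse strand). It was read at 3839 and 3359 in control Tregs and at 1808 and 1865 in CD70Tg Tregs. Among Tconvs it was read at 2512 and 2480 in controls and at 3492 and 3445 in CD70Tg libraries. Control and CD70Tg libraries did not overlap in either subset, and the CD70Tg Tconv libraries fell between the 2 control Treg libraries. The fall in Tregs was -0.97 on the log2 scale (SE 0.11, 95% confidence interval -1.21 to -0.73, limma adjusted p = 6.26e-05). The rise in Tconvs was 0.47 (SE 0.11, 95% confidence interval 0.23 to 0.71, limma adjusted p = 0.0123). It no longer passed without the second control Tconv library (limma adjusted p = 0.0659), with no minimum value for the genes tested (0.0639) or with Tconv libraries fitted alone (0.0525). The fall in Tregs passed without each of the 8 libraries in turn.

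The 2 responses of Bcl2 were compared directly, as the change in Tregs minus the change in Tconvs. The difference was -1.44 (SE 0.16, 95% confidence interval -1.78 to -1.10, limma adjusted p = 2.58e-04), and it ranked 5 by p among all genes tested. Of these genes 1.02% passed for the difference (0.195% higher and 0.827% lower, or 0.882% with the fold requirement), and Bcl2 was the 1 member that did by either rule. With no minimum value, which raised the number of genes tested to 26467, its adjusted p was 0.0649. Lower in Tregs and higher in Tconvs, each past the test, were 5 genes, or 0.039% of those tested. Beside Bcl2 these were Lax1, an adaptor of lymphocyte signalling, Myo6, a myosin motor, Tbc1d2b, a gene of the TBC1 domain family, and D630008O14Rik, which were named after their values were seen.

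D630008O14Rik is a transcript on the strand opposite to Bcl2 whose exons overlap 6.09% of the annotated exon length of Bcl2. It was read at 612 and 508 in control and at 262 and 310 in CD70Tg Tregs, and at 403 and 419 in control and at 637 and 638 in CD70Tg Tconvs. Its changes were -0.96 in Tregs (limma adjusted p = 0.00432) and 0.63 in Tconvs (limma adjusted p = 0.0409). It thus moved in the direction of Bcl2 in both subsets. Whether the counting used strand is not given in the sources used here, so reads of the shared stretch cannot be told apart between the 2 genes. Its values were below those of Bcl2 in every library.

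Mcl1 encodes a pro-survival protein of short half-life. Reads put it at 14475 and 13858 in control and at 14168 and 14289 in CD70Tg Tregs, which overlapped. The Tconv values were 11270 and 9787 in control and 11070 and 11428 in CD70Tg libraries, which overlapped as well. The fitted change was 0.0066 in Tregs (95% confidence interval -0.24 to 0.25, limma adjusted p = 0.981) and 0.099 in Tconvs (95% confidence interval -0.15 to 0.34, limma adjusted p = 0.744). Changes larger than these bounds lie outside the intervals, and smaller ones could not be detected with 2 libraries a group. Mcl1 was the member whose values were best supported by reads, up to 18983 in 1 library.

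Bcl2l1, which encodes BCL-XL, was read at 1927 and 1901 in control and at 1463 and 1637 in CD70Tg Tregs. These did not overlap, but the change of -0.31 did not pass (95% confidence interval -0.64 to 0.03, limma adjusted p = 0.286). Control Tconvs were at 892 and 779. The CD70Tg libraries stood on either side of them, at 698 and 997, and the fitted change was 0.0012 (95% confidence interval -0.34 to 0.34).

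Bcl2a1b was read at 1150 and 1069 in control and at 1087 and 1240 in CD70Tg Tregs, which overlapped (change 0.066, limma adjusted p = 0.899). Its Tconv values were 848 and 691 in control and 799 and 1495 in CD70Tg libraries (change 0.51, limma adjusted p = 0.186). The second CD70Tg Tconv library thus stood apart. The same held for its near-copies, which like it encode A1 proteins. Bcl2a1d was at 297 and 229 in control and at 274 and 790 in CD70Tg Tconvs, and Bcl2a1a at 48 and 30 in control and at 41 and 109 in CD70Tg Tconvs. Gm29094, whose exons overlap 49.1% of those of Bcl2a1b on the same strand, was at 879 and 752 in control and at 764 and 1439 in CD70Tg Tconvs. None of these 4 genes passed in either subset.

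The effectors BAX and BAK form the pores that release cytochrome c. Bax was read at 1699 and 1669 in control and at 1724 and 1833 in CD70Tg Tregs (change 0.078, limma adjusted p = 0.824). Control Tconvs, at 1535 and 1495, lay between the 1412 and 2082 of the CD70Tg libraries (change 0.18, limma adjusted p = 0.614). Exons of Gm45808 on the same strand overlap 12.2% of the exon length of Bax, and Gm45808 did not pass in either subset (0.043 in Tregs and 0.13 in Tconvs). Bak1 was read at 2237 and 2093 in control and at 3010 and 2795 in CD70Tg Tregs. Those groups did not overlap, yet the change of 0.42 did not pass (95% confidence interval 0.10 to 0.74, limma adjusted p = 0.102).

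Bak1 in Tregs lay close to the threshold. It passed when the values were rescaled by median-of-ratios factors (limma adjusted p = 0.0391) or upper quartile factors (0.0392), when Tregs were fitted alone (0.00714), and when either CD70Tg Tconv library was left out. Its Tconv values were 1976 and 1875 in control and 2003 and 2954 in CD70Tg libraries (change 0.34, limma adjusted p = 0.221). Exons of Ggnbp1 on the opposite strand overlap 25.5% of the exon length of Bak1, and Ggnbp1 was at 0.044 in Tregs (limma adjusted p = 0.897).

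Pmaip1 encodes NOXA, a BH3-only protein that binds MCL1 and A1. It was read at 68 and 55 in control and at 338 and 605 in CD70Tg Tconvs. In Tregs it was at 292 and 276 in control and at 627 and 941 in CD70Tg libraries. The lowest CD70Tg library was above the highest control library in each subset, and the CD70Tg Tconv libraries were also above the control Treg libraries. The rise was 2.79 on the log2 scale in Tconvs (SE 0.28, limma adjusted p = 3.56e-06), and it passed without each library in turn and under every other setting that was run. The rise was 1.42 in Tregs (SE 0.28, limma adjusted p = 0.00485), and it did not pass without the second CD70Tg Treg library (1.13, limma adjusted p = 0.0645), with no minimum value (0.0697) or by limma-voom on approximate reads (0.0521). The rise was not shown to differ between the subsets: the difference of -1.37 (95% confidence interval -2.20 to -0.54) did not pass (limma adjusted p = 0.132). Without the first CD70Tg Tconv library it did, at -1.78 (limma adjusted p = 0.0181).

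Bcl2l11 encodes BIM, which can bind every pro-survival member. It was read at 1689 and 1537 in control and at 1077 and 1104 in CD70Tg Tregs, which did not overlap. Tconv libraries were at 1733 and 1618 in control and at 1767 and 1448 in CD70Tg libraries, which overlapped. The fall in Tregs was -0.56 (SE 0.13, limma adjusted p = 0.0154). That call was the least stable of the family: it was lost without any 1 of the 4 Treg libraries (adjusted p from 0.0595 without the second control to 0.201 without the first control, 0.104 without the first and 0.0698 without the second CD70Tg library), with no minimum value (0.0674) and by limma-voom (0.149). The change in Tconvs was -0.066 (limma adjusted p = 0.868), and the difference between the subsets, -0.50, did not pass (limma adjusted p = 0.318).

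Bid encodes the BH3-only protein that caspase-8 cleaves. Its values were 1121 and 1126 in control and 1348 and 1507 in CD70Tg Tregs (change 0.34, limma adjusted p = 0.27). Tconv libraries were at 527 and 538 in control and at 585 and 884 in CD70Tg libraries (change 0.43, limma adjusted p = 0.164). Neither pair of groups overlapped and neither change passed. Limma-voom on approximate reads put the Tconv change at 0.55 and past the threshold (adjusted p = 0.0413). Exons of Bcl2l13 on the opposite strand overlap 17.7% of the exon length of Bid. Bcl2l13 was read above Bid in every library and was at 0.31 in Tregs (limma adjusted p = 0.121) and at -0.016 in Tconvs (0.968).

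Bbc3 encodes PUMA, a target of p53 and FOXO factors. Its values were 709 and 810 in control and 847 and 588 in CD70Tg Tregs, which overlapped (change -0.10, limma adjusted p = 0.838). In Tconvs the 2 control libraries differed from each other, at 735 and 1227, and both were above the CD70Tg libraries, at 623 and 662. The change of -0.56 did not pass (limma adjusted p = 0.141). Without the first control Tconv library it was -0.93 and passed (limma adjusted p = 0.0105).

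The 2 CD70Tg Tconv libraries stood apart from each other over the family. The second was above the first for Bax, Bak1, Bid, Bcl2a1b, Bcl2l1, Mcl1, Pmaip1 and Bbc3, and below it for Bcl2 and Bcl2l11. Without the first, 6 members passed as higher in Tconvs: Bcl2, Pmaip1, Bax (0.46), Bak1 (0.62), Bid (0.73) and Bcl2a1b (0.96). Without the second, Bcl2 and Pmaip1 passed. Their summed values of 12 proliferation genes differed as well, at 8034 in the first and 12417 in the second, beside 7022 and 6796 in control Tconvs. In Tregs that sum was 8604 and 8638 in control and 10716 and 11256 in CD70Tg libraries, so it moved with the transgene in both subsets. Of these 12 genes, 8 rose in Tconvs, among them Mki67 (1.43), where 6.82% of all genes tested did, and 1 rose in Tregs, Ccnb2 (1.32), where 3.94% did. None of the 12 passed for the difference between the subsets in the main fit, where 1.02% of all genes tested did, and their median difference was -0.58 beside -0.084 for all genes tested. Mki67, Top2a and Rrm2 passed for the difference in at least 1 other fit, with values down to -1.40, -1.09 and -1.38 among the other settings. The change of Mki67 in Tconvs was 0.73 to 2.13 among the other settings. Each of the 9 calls within a subset was lost under at least 1 setting. In bulk samples, a change in the share of cells of one kind and a change of RNA per cell cannot be told apart, and the part of cycling cells in the changes of the family was not tested.

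Tregs and Tconvs were also compared within each genotype. In control mice 5 members passed, all higher in Tregs, where 45.8% of all genes tested passed (27.5% higher and 18.4% lower). They were Pmaip1 (2.13), Bcl2l1 (1.19), Bid (1.07), Bcl2 (0.52) and Mcl1 (0.43). Libraries did not overlap for 8 members, as for 76.2% of genes. With the fold requirement 3 were left, Pmaip1, Bcl2l1 and Bid, where 19.2% of genes passed. Mcl1 lost its call without the first control Treg library (limma adjusted p = 0.0579) and without the second control Tconv library (0.0743). Bcl2a1b missed the threshold at 0.53 (limma adjusted p = 0.0523) and passed under 6 other settings, among them those without the first control Tconv library or without either CD70Tg Tconv library. Bbc3, at -0.32, passed as lower without the first control Tconv library (-0.69, limma adjusted p = 0.0195).

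In CD70Tg mice 6 members passed in the same comparison, 4 higher and 2 lower in Tregs, where 42.7% of genes tested passed (22.6% higher and 20.1% lower). Bid (0.98), Bcl2l1 (0.89), Pmaip1 (0.76) and Mcl1 (0.34) were higher. Bcl2 (-0.92, SE 0.11) and Bcl2l11 (-0.55, SE 0.13) were lower. Libraries did not overlap for these same 6 members, as for 69.2% of genes. No member reached an absolute log2 fold change over 1, which 17.2% of genes did with an adjusted p under 0.05. The calls of Pmaip1 and Mcl1 in this comparison were lost without the first CD70Tg Tconv library (limma adjusted p = 0.366 and 0.0569), without the second CD70Tg Treg library (0.284 and 0.116) and with no minimum value (0.135 and 0.0512). That of Mcl1 was also lost without the first CD70Tg Treg library (limma adjusted p = 0.115), and that of Pmaip1 by limma-voom (0.0753). Without the second CD70Tg Tconv library, Bak1 (0.53) and Bcl2a1b (0.54) passed as higher in Tregs.

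Bcl2 was thus higher in Tregs than in Tconvs among controls, at 3599 ± 339 against 2496 ± 22.6 (SD, n = 2), and lower among CD70Tg mice, at 1837 ± 40.3 against 3469 ± 33.2. Passing as higher in control Tregs and as lower in CD70Tg Tregs was seen for 25 genes, or 0.195% of those tested. Without any 1 library Bcl2 passed in both comparisons.

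Ratios between members were computed in each library as a description, with no test. They are not corrected for gene length, so only their change can be read. The ratio of Bcl2 to Bax was 2.26 and 2.01 in control and 1.05 and 1.02 in CD70Tg Tregs, a change of -1.05 on the log2 scale. In Tconvs it was 1.64 and 1.66 in control libraries. It was 2.47 in the first and 1.66 in the second CD70Tg library, so that it moved in 1 of them only.

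Because Bcl2 and Bcl2l11 both fell in Tregs, their ratio moved less, from 2.27 and 2.19 to 1.68 and 1.69, a change of -0.40. In Tconvs it moved from 1.45 and 1.53 to 1.98 and 2.38, a change of 0.54. The ratio of Mcl1 to Bcl2l11 in Tregs was 8.57 and 9.02 in control and 13.2 and 12.9 in CD70Tg libraries, a change of 0.57. In Tconvs it was 6.50 and 6.05 in control and 6.27 and 7.89 in CD70Tg libraries, which overlapped (change 0.17). The ratio of Mcl1 to Pmaip1 was 166 and 178 in control and 32.8 and 18.9 in CD70Tg Tconvs, and 49.6 and 50.2 in control and 22.6 and 15.2 in CD70Tg Tregs. These ratios describe transcripts in a sort of living cells.

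**Figure D3:**
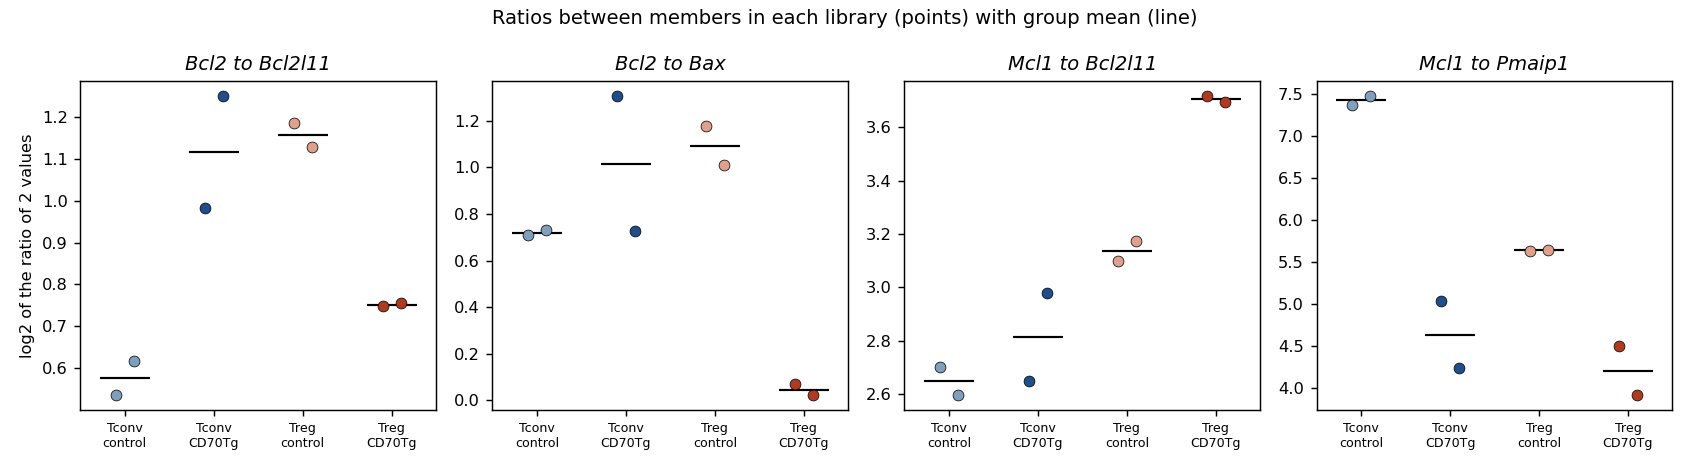
Each panel plots the log2 ratio of the values of 2 members in single libraries (points) with the group mean (line); the vertical axes are log2 scales that do not start at 0. The Bcl2 to Bax ratio was lowest in CD70Tg Tregs (1.05 and 1.02), and the Mcl1 to Pmaip1 ratio was lower in both CD70Tg groups than in their controls.

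For the 2 most variable members, the genes with the most alike pattern over the 8 libraries were listed. Pmaip1 had the highest Pearson correlations with Pvrig, an inhibitory receptor gene (r = 0.997), Gbp10, a guanylate-binding protein (r = 0.994), and Cd274, which encodes PD-L1 (r = 0.993). Cd274 was at 767 and 729 in control and at 1807 and 2176 in CD70Tg Tconvs, and at 1519 and 1524 in control and at 2675 and 3083 in CD70Tg Tregs. Bid was most alike to Tpm4, a tropomyosin (r = 0.995), Dusp1, a MAP kinase phosphatase (r = 0.995), and Il3ra, a cytokine receptor chain (r = 0.992). These correlations over 8 libraries of 4 groups describe patterns that group differences set, over libraries of 1.91 to 33.2 M reads in which the Tregs were the shallowest.

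The other genes of the family were given from a fixed list. The counts of this and the next lists stand beside 6.82% of all genes tested that passed as higher and 1.99% as lower in Tconvs, and 3.94% as higher and 3.46% as lower in Tregs. For the difference between the subsets 1.02% of all genes tested passed, so the absence of such a call in a short list says little. Of the 9 pro-survival genes 7 were tested, and Bcl2 was the 1 that passed in each subset (lower in Tregs, higher in Tconvs). Bcl2l2, which encodes BCL-W, was at 31 to 65 in Tconvs and at 142 to 189 in Tregs and changed by 0.11 in Tregs and 0.25 in Tconvs. Bcl2l10 was listed at 0 in every library, as was Hrk of the BH3-only genes. The third effector gene, Bok, at 6 or less in every library, and the A1 gene Bcl2a1c, at 3 or less, were too low to be tested. The 5 tested genes of a wider group of BCL2-like genes did not pass in either subset.

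Of the 8 BH3-only genes 7 were tested. In Tregs 1 rose, Pmaip1, and 2 fell, Bcl2l11 and Bmf, and in Tconvs 1 rose, Pmaip1, where 3.94% of all genes tested rose and 3.46% fell in Tregs and 6.82% rose in Tconvs. None of the 7 passed for the difference between the subsets in the main fit, where 1.02% of all genes tested did. Bmf, a BH3-only protein known to act with the cytoskeleton, was at 384 and 386 in control and at 168 and 223 in CD70Tg Tregs. Its fall was -0.97 (SE 0.23, limma adjusted p = 0.0142) and its adjusted p reached 0.146 among the other settings. In Tconvs it was at 286 and 241 in control and at 248 and 269 in CD70Tg libraries, which overlapped. Bik, at 5 to 118, and Bad, at 421 to 671, did not pass in either subset.

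Downstream of the family, Apaf1 encodes the scaffold of the apoptosome, which cytochrome c activates. It was the 1 gene of 7 tested in its list that passed in each subset. For the difference between the subsets none of the 7 passed, where 1.02% of all genes tested did. Apaf1 was at 754.5 ± 41.7 in control and 1589 ± 218 in CD70Tg Tconvs (SD, n = 2) and rose by 1.06 (SE 0.14, limma adjusted p = 6.01e-05). In Tregs it was at 1165 ± 13.4 in control and 1668 ± 127 in CD70Tg libraries and rose by 0.51 (SE 0.14, limma adjusted p = 0.0309), and this p reached 0.219 among the other settings.

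The IAP genes encode inhibitors of caspases and of the signals that lead to them. Of 5, 3 rose in Tconvs, Birc5 (1.51), Birc3 (0.49) and Birc2 (0.43), and 1 rose in Tregs, Birc2 (0.74), where 6.82% of all genes tested rose in Tconvs and 3.94% in Tregs. None of the 5 passed for the difference between the subsets in the main fit, where 1.02% of all genes tested did. Their median difference was -0.41, beside -0.084 for all genes tested. Birc6 passed for the difference in at least 1 other fit, and its value there ranged from -0.94 to 0.11 among the other settings. Birc5, which encodes survivin, is also a gene of mitosis. Of 9 genes of the death receptor arm, 2 rose in Tconvs, the death ligands Fasl (1.05) and Tnfsf10 (0.99), and none passed in Tregs. The change of Tnfsf10 differed between the subsets (-0.89, limma adjusted p = 0.0443), and this p reached 0.37 among the other settings.

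Of 9 tested genes of the p53 list, 2 rose and 1 fell in Tconvs, and 2 fell in Tregs. Cdkn1a, which encodes p21, rose 5.65-fold in Tconvs from a low level, 33.5 ± 23.3 in control to 218 ± 148 in CD70Tg libraries (SD, n = 2). Its log2 change was 1.76 to 3.23 among the other settings, with limma adjusted p up to 0.115. Phlda3, an inhibitor of AKT, rose by 1.63, and Trp53 itself fell by 0.47. In Tregs, Aen (-0.60), a nuclease gene, and Trp53inp1 (-0.51) fell.

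Of 11 genes of the FOXO, PIM and cytokine survival input, 3 rose and 1 fell in Tconvs and 1 rose in Tregs. Pim1, a kinase that can phosphorylate BAD, rose by 0.92 in Tconvs and by 0.66 in Tregs. Pim2 (0.82) and Il2rb (1.05), the receptor chain shared by IL-2 and IL-15, rose in Tconvs, and the change of Il2rb differed between the subsets (-0.91, limma adjusted p = 0.0157, up to 0.225 among the other settings). Foxo1 fell by 0.51 in Tconvs and was at -0.22 in Tregs (limma adjusted p = 0.326). The list for MCL1 turnover held Fbxw7, Huwe1, Usp9x, Trim17 and Cdkn1b, the last of which encodes the cell cycle inhibitor p27 rather than a known regulator of MCL1, and none of the 5 passed in either subset. Usp9x, a deubiquitinase gene named after its values were seen, lay close to the threshold in Tregs (-0.43, limma adjusted p = 0.0504, and 0.00415 to 0.313 among the other settings). Of the calls named for these genes and lists, those of Apaf1, Tnfsf10, Pim1 and Il2rb in Tconvs and of Pim1 in Tregs passed at an adjusted p under 0.05 in every fit run, and each of the others was lost in at least 1. With an absolute log2 fold change over 1 required, Apaf1 and Il2rb in Tconvs were left of these 5 calls.

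**Figure D4:**
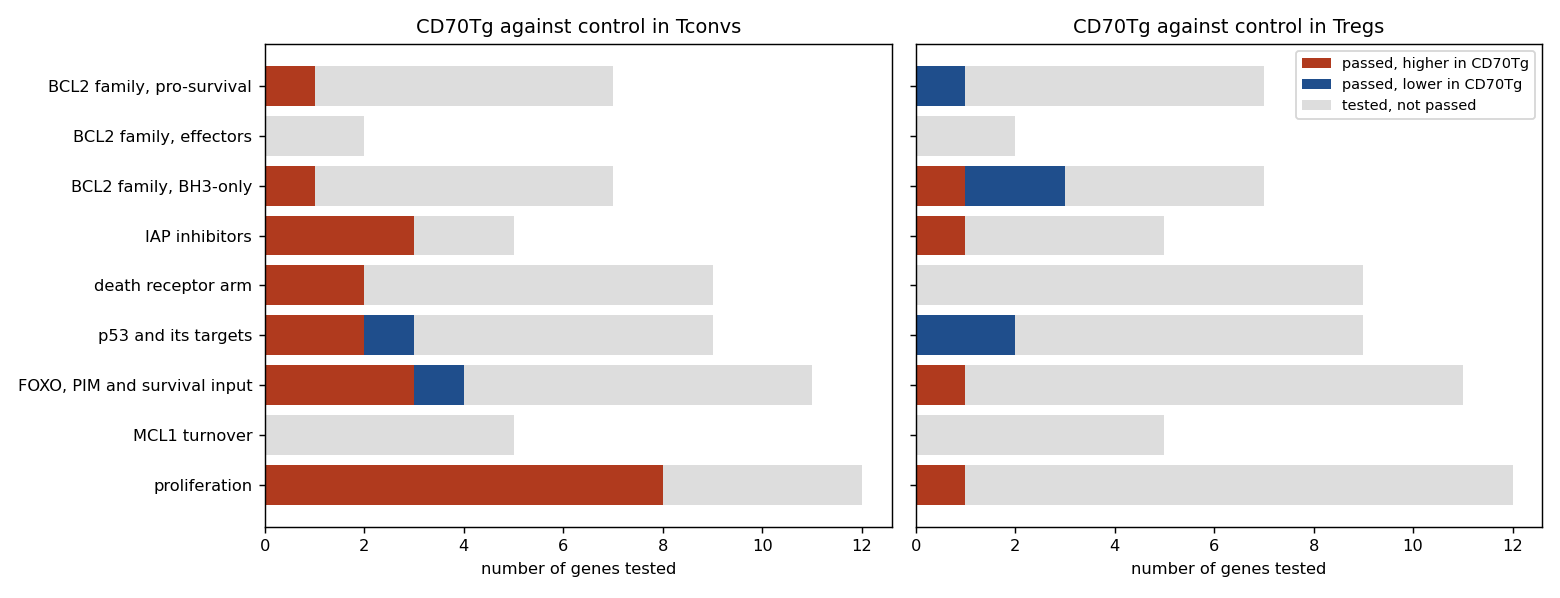
Bars start at 0 and count the tested genes of each list that passed as higher (red) or lower (blue) in CD70Tg libraries or did not pass (grey), in Tconvs on the left and Tregs on the right. Proliferation genes had the most calls in Tconvs (8 of 12), and BH3-only genes had calls in both directions in Tregs (1 higher and 2 lower).

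Markers of other cells were read beside these results. B cell markers summed to 10031 to 12497 in Tconvs and to 37122 to 49538 in Tregs, nearly all of it Ighm, while the defining markers Ms4a1 and Pax5 were at 48 or less in every library. Cd79b and Cd79a, the B cell receptor signalling chains, were named after their values were seen. Cd79b was at 35 to 67 in Tconvs and at 165 to 272 in Tregs, and it passed as higher in Tregs than in Tconvs of both genotypes (1.74 in control and 2.49 in CD70Tg mice). Cd79a passed as higher in Tregs than in Tconvs of CD70Tg mice (1.92, limma adjusted p = 0.000841). Dendritic cell markers summed to 66 to 156 in control and to 177 to 389 in CD70Tg libraries of both subsets, and of the 2 tested of 5 genes 1 rose in Tregs (Zbtb46) and 1 in Tconvs (Itgax). Myeloid markers summed to 1092 to 1527 in Tconvs and to 2536 to 3004 in Tregs, and 5 of 9 were tested. In Tregs Itgam (1.13) and S100a9 rose and Csf1r (-0.67) fell, while in Tconvs Cd68 (2.02) rose and Itgam (-0.95) fell. For the difference between the subsets, 3 of the 5 passed as higher in Tregs, where 0.195% of all genes tested did. These were Itgam (2.09), S100a9 (4.49) and Lyz2 (limma adjusted p = 0.0407), beside the Bcl2 difference of -1.44, and each of these 3 was lost in at least 1 other fit. Cd68 (-1.56, limma adjusted p = 0.0777) and Csf1r (-0.34) had the sign of Bcl2 and did not pass, though Cd68 did in at least 1 other fit. S100a9 was at 0 and 5 in control and at 95 and 104 in CD70Tg Tregs and at 10 or less in Tconvs, so that its fitted difference depends on the added 5. None of the tested B cell, dendritic cell, CD8 and NK, or erythroid and platelet markers passed for the difference in the main fit, where 1.02% of all genes tested did. The median differences of these lists were, in that order, 0.75, 0.039, -0.25 and 1.84, beside -0.084 for all genes tested. Markers of CD8 and NK cells summed to 1125 and 1135 in control and 1644 and 1677 in CD70Tg Tconvs and to 381 and 453 in control and 642 and 660 in CD70Tg Tregs, with Ncr1 at 2 or less throughout. Within that list Cd8a rose in both subsets, from 17 and 28 to 508 and 608 in Tconvs and from 25 and 71 to 262 and 223 in Tregs. Klrb1c, which encodes the NK receptor NK1.1, fell in both subsets, from 403 and 423 to 75 and 68 in Tconvs (-2.45, limma adjusted p = 0.00275) and from 64 and 36 to 0 and 11 in Tregs (-2.57, limma adjusted p = 0.00352). Both CD70Tg Treg values of Klrb1c lie below the value of 3 reads in their libraries (31.4 and 16.3), so that this fitted fall in Tregs depends on the added 5. Erythroid and platelet markers summed to 736 to 1331 in Tconvs, to 488 and 1355 in control Tregs and to 3272 and 2042 in CD70Tg Tregs, where 3 haemoglobin genes rose. Of the marker calls named for the transgene in either subset, those of Cd8a and Cd68 in Tconvs and of S100a9 in Tregs passed in every other fit that tested them, and each of the others was lost in at least 1, with the limma adjusted p of the haemoglobin genes reaching 0.115 to 0.238. The part of these other cells in the changes of the family was not tested.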

How the data were processed

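RNA of sorted splenic Tregs and Tconvs of CD70Tg and control mice was sequenced by the authors as paired-end Ovation SoLo libraries (2 per group, 4 groups). The submitters' processing notes name Trimmomatic 0.36 for trimming, STAR 2.5.3 with the mm10 build for mapping and HTSeq 0.9.1 for counting. The annotation release and strand setting are not given in the sources used here. The deposited values, treated as a score, are whole numbers scaled to 20 M per library (totals of 19963628 to 20164600), not raw counts. The size of 1 read in each library was estimated from the lowest values, which gives approximate reads only. Because values were scaled and rounded, count models were not used.

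Rows named from genomic clones (4131) were left out, and genes at 60 or more in at least 2 libraries were kept (12816 of 52636 rows). Log2(value + 5) was fitted with limma 3.58.1 (R 4.3.3, trend) over all 8 libraries with 1 mean per group, and p-values were adjusted by Benjamini-Hochberg over all genes tested in each of 5 comparisons; passing means an adjusted p under 0.05. Fold changes on this scale understate the change of low genes. On simulated data for the Treg comparison, 76% of 2-fold changes were recovered over 12816 genes with 24 false calls among 176, and for the Tconv comparison 69.5% with 1 among 140. The share of false calls in the Treg run was thus above the threshold of 0.05. Every gene and library was simulated with the same small spread. Real groups can vary more, such as Bcl2a1b in CD70Tg Tconvs (1147 ± 492, SD, n = 2), so these rates need not hold for the data.

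The members and the gene lists were chosen with earlier results of these data known. Named genes were the 10 members, other genes of the BCL2 family, up to 3 genes with the largest changes per list and comparison among those that passed, and the 3 genes most alike to the 2 most variable members. Some other genes were named outside this rule, among them the markers Ms4a1, Pax5 and Ncr1, which were too low to be tested. Some genes of the lists are not reported here and were left out of their counts and sums. Exon lengths, overlaps and coding sequences come from GENCODE M21 on GRCm38 (99.6% of gene identifiers matched) and promoter windows from RefSeq GRCm38.p6. Alternatives covered the pseudocount, the minimum value, scaling, the samples fitted, limma-voom, clone-named rows and leaving out each library.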

Additional observations from a re-analysis of the deposited data

Results flagged for a closer look

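The response of Bcl2 to the CD70 transgene differed between the subsets by the test of the difference itself (limma): -1.44 on the log2 scale, as the change in Tregs minus that in Tconvs. Both Treg libraries of CD70Tg mice (1808 and 1865) were below both controls (3839 and 3359), and both Tconv libraries of CD70Tg mice (3492 and 3445) were above theirs (2512 and 2480). Beside this, 3 of 5 tested myeloid markers passed for the same difference in the other direction (Itgam at 2.09, S100a9 at 4.49, and Lyz2), where 0.195% of all genes tested did. The others, Cd68 (-1.56) and Csf1r (-0.34), had the sign of Bcl2 and did not pass. The part of these markers in the Bcl2 difference was not tested. Groups of 2 libraries are too small to look for a single library far from the others.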

How the results depend on the processing

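Over 840 comparisons of a member's result with its value under another setting, 771 kept their direction and their side of the threshold, 22 newly passed, 23 no longer passed and 24 turned sign. At an adjusted p under 0.05 the fall of Bcl2 in Tregs and the rise of Pmaip1 in Tconvs passed in every fit run, and with an absolute log2 fold change over 1 required as well, Bcl2 (-0.97) did not pass. None of the results that turned sign had passed. Bcl2l1 in Tconvs turned to -0.038 under median-of-ratios and -0.037 under upper quartile scaling. Limma-voom turned Bax to -0.0018 and Bcl2a1b to -0.023 in Tregs against Tconvs of CD70Tg mice.

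Leaving out each library in turn turned the others, given as the lowest and highest log2 change. In Tregs, Mcl1 ranged from -0.025 to 0.038, Bcl2a1b from -0.028 to 0.16 and Bbc3 from -0.36 to 0.16. In Tconvs, Bcl2l1 ranged from -0.25 to 0.26, Bcl2l11 from -0.21 to 0.077, Mcl1 from -0.0029 to 0.20 and Bax from -0.10 to 0.46. For the difference, Mcl1 ranged from -0.19 to 0.0095, Bax from -0.38 to 0.18, Bak1 from -0.19 to 0.36, Bid from -0.38 to 0.21 and Bcl2a1b from -0.90 to 0.0047. For Tregs against Tconvs in control mice, Bcl2l11 ranged from -0.12 to 0.012 and Bbc3 from -0.69 to 0.044. In CD70Tg mice, Bax ranged from -0.23 to 0.33, Bak1 from -0.026 to 0.53, Bcl2a1b from -0.36 to 0.54 and Bbc3 from -0.13 to 0.40. The first and second CD70Tg Tconv libraries set most of these limits.

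Numbers of genes passing moved more. In Tregs, 948 became 462 with an absolute log2 fold change over 1 required, 261 with no minimum value, 1615 with Tregs fitted alone, 253 by limma-voom and 300 to 1286 without a library (300 without the first control Treg library). The 3 members became 1 with no minimum value, 1 by limma-voom and 1 to 4 without a library. In Tconvs, 1129 became 596 with the fold required, 365 with no minimum value, 1988 by limma-voom and 524 to 1554 without a library (524 without the second CD70Tg Tconv library). The 2 members became 1 with no minimum value, 1 with Tconvs fitted alone and 1 to 6 without a library. For the difference, 131 became 63 by limma-voom and 62 to 269 without a library. With no minimum value limma passed 0 genes for the difference, where 2249 of 26467 had an unadjusted p under 0.05. The 1 member became 0 there and 1 to 3 without a library. For Tregs against Tconvs, 5875 became 2455 in control mice and 5467 became 2210 in CD70Tg mice with the fold required, and the control count ranged from 3700 to 6316 without a library. With no minimum value more genes shared the adjustment, and apart from that the cause was not tested.

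No paired analysis was possible because the columns are named by group and by a number that is not the replicate number of the labels. Without a library, its group is a single sample that is assumed to vary like the others. Either rescaling moved the median change of all genes tested by 0.1 or less. Depth limits Tregs most, since 1.91 M counted reads in the shallowest library put the floor of 3 reads at a value of 31.4.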
